A study of Mus musculus with 12 samples.

Results

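Potassium channel genes were taken as every row of the gene count matrix whose Ensembl identifier carried a mouse symbol starting with Kcn, with antisense and overlapping transcripts (names ending in os or ot) left out. They were 94 of 52636 genes. Counts came from bulk RNA-seq of GFP-sorted aortic SMCs of C57BL/6J mice at 12 weeks of age, with a library of the ascending aorta and arch and a library of the descending thoracic aorta for each of 3 GFPiSMC and 3 Tgfbr1/2iSMCKO replicate numbers (12 libraries in 4 groups). Both genotypes carried tamoxifen-inducible Cre under the Myh11 promoter of SMCs and a reporter that marks recombined cells with GFP, and Tgfbr1/2iSMCKO mice carried in addition floxed alleles of Tgfbr1 and Tgfbr2, the TGF-β receptor genes. Both received tamoxifen for 5 days. The labels name both 1 mg/d at 4 weeks and 2 mg/d at 11 weeks of age, and by the methods and text of the study SMCs taken at 12 weeks had been induced at 11 weeks. The controls had no floxed alleles, so that mouse line and receptor deletion cannot be told apart. The questions addressed were which potassium channel genes aortic SMCs express, and which differed with receptor deletion or between segments.

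Libraries held 20467027 to 31392396 counts from 9208 to 20000 sorted cells. The summed level of 6 SMC markers lay at 33588 to 47523 CPM (counts scaled by library size and TMM factors to a common total), and summed endothelial and macrophage markers at 54.4 to 104 CPM and 4.45 to 15.2 CPM. Cardiac muscle, Schwann and neural, and adipocyte markers summed to 42.4 to 149, 2.73 to 6.48 and 0.330 to 1.36 CPM. The cardiac sum was mostly Tnnt2 and Ryr2, and Ryr2 was also counted below as a calcium channel gene. Of the other cardiac markers, Myl7 was at 0 in each library and Myh6 lay at 0.315 to 2.09 CPM. Among the markers of these cell types and of fibroblasts, Cdh5 (endothelial) was higher in Tgfbr1/2iSMCKO (edgeR adjusted p = 0.0250). Col14a1 (fibroblast) and Actn2 (cardiac) were lower (edgeR adjusted p = 0.0316 and 0.000769). With counts summed per animal the adjusted p of Cdh5, Col14a1 and Actn2 became 0.0365, 0.185 and 0.00686. The call of Col14a1 was thus lost, as it was with scaling to library size only (0.0575). Cdh5 was low, at 0 to 0.513 CPM in GFPiSMC and 0.497 to 2.71 CPM in Tgfbr1/2iSMCKO. Pecam1, most of the endothelial sum, had a log2 fold change of -0.13 (SE 0.16, edgeR adjusted p = 0.800). The part of these marker genes in the results was not tested. Both libraries of Tgfbr1/2iSMCKO replicate 3 stood apart, with the lowest share of mitochondrial counts (2.39% and 2.49%, against 2.99% to 4.98% in the other 10), the lowest SMC marker sums (33588 and 34761 CPM) and the highest macrophage marker sums (12.3 and 15.2 CPM). Gene totals did not resolve the deletion. Tgfbr1 differed by a log2 fold change of 0.10 (SE 0.12) and Tgfbr2 by -0.26 (SE 0.11), with edgeR adjusted p = 0.790 and 0.233. Counts per gene do not show which part of a receptor gene was removed, and levels of single exons were not examined. In bulk libraries, fewer cells of a type and less RNA per cell cannot be told apart.

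Potassium channels set the resting potential of SMCs. Their opening hyperpolarizes the membrane, closes voltage-gated calcium channels and relaxes the vessel. Voltage-gated channels open on depolarization and limit it, calcium-activated channels respond to calcium released close to the membrane, inward rectifiers include the ATP-sensitive channels targeted by vasodilator drugs, and tandem-pore channels carry background current. Auxiliary subunits carry no current of their own and change the gating or surface transport of the pore subunits.

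Between genotypes, 5 potassium channel genes passed the test and RefSeq promoters were at hand for Kcna2, Kcnj8 and Kcnmb1. The 250 bases before the start of Kcnj8 (chr6:142571615-142571864, minus strand) and Kcnmb1 (chr11:33962763-33963012, plus strand; build GRCm38.p6) held no annotated exon and are shown as the upstream sequence of the most abundant gene that was higher and of the most abundant gene that was lower in Tgfbr1/2iSMCKO SMCs. Capitals mark the Smad box CAGAC, searched on both strands (GTCTG on the strand shown).
Kcnj8: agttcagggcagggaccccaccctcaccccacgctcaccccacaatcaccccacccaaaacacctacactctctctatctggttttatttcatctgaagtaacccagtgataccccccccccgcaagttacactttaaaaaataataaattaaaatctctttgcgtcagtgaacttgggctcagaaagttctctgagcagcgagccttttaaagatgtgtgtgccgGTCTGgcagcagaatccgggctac
Kcnmb1: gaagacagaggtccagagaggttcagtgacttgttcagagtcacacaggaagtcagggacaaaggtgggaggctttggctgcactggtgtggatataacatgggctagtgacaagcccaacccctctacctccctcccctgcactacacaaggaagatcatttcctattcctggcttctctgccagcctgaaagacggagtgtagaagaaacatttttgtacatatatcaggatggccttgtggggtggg
Kcnj8 held 1 Smad box and Kcnmb1 none, against 42.2% of all 32851 promoter windows of this length with at least 1. Neither window held a CArG box, the motif bound by serum response factor, which was found in 1.47% of all windows. Among 94 windows of 69 potassium channel genes, 45 held a Smad box and 0 a CArG box. A match is a description of the letters and not of a binding site.

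Aortic SMCs expressed a broad set of potassium channel genes at very unequal levels. Of the 94 genes, 93 had a count in at least 1 library and Kcnk7 was at 0 in all 12. A filter on low counts left 68 genes to test, and the other 26 never exceeded 21 counts in a library. A mean of 1 CPM or more over the 12 libraries was reached by 31 genes, and 17 genes reached a mean of 10 CPM or more in at least 1 of the 4 groups. The genes together took 1385 to 1919 CPM of a library. Auxiliary subunits dominated this sum: Kcnmb1, the smooth muscle β subunit that raises the calcium sensitivity of the large-conductance calcium-activated (BK) channel, and Kcnab1, a cytoplasmic β subunit of voltage-gated channels, made up 62.6% to 75.2% of it.

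Per kilobase of merged exons, Kcnmb1 had the highest level (161 ± 28.4 CPM per kb, SD over 12 libraries), followed by Kcnab1 (53.6 ± 8.48), Kcnj8 (36.2 ± 19.7), Kcne4 (20.7 ± 10.7), Kcnc4 (8.84 ± 1.85), Kcnj15 (7.86 ± 7.24) and, at rank 8, Kcnip4 (7.04 ± 3.16). Kcnmb1 exceeded Kcnab1 in 12 of 12 libraries. Kcnab1 exceeded Kcnj8 in 10 libraries, Kcnj8 exceeded Kcne4 in 9, and Kcne4 exceeded Kcnc4 in 10. Kcnc4 exceeded Kcnj15 in 9 of 12 libraries, and their levels overlapped within the SD of Kcnj15. Kcnma1, the BK pore, ranked 12th with 2.97 ± 0.668 CPM per kb. Its merged exons span 16976 bases. With the longest annotated transcript as the length, Kcnma1 ranked 10th, Kcnip4 rose from rank 8 to rank 5, and the first 4 genes kept their ranks.

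**Figure D1:**
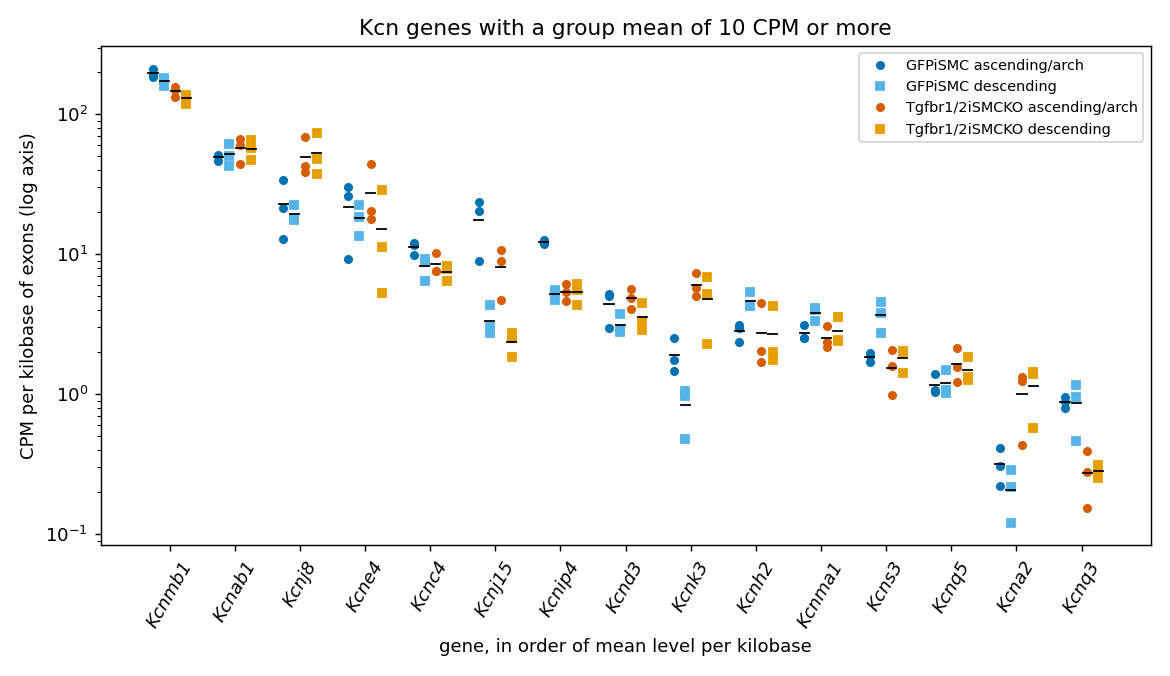
Levels of 15 potassium channel genes with a group mean of 10 CPM or more, in CPM per kilobase of merged exons on a log axis. Each point is a library, colors and shapes mark the 4 groups, and short lines are group means. Kcnmb1 lies above Kcnab1 in each library, and Kcnj15 and Kcnip4 spread over groups more than Kcnc4.

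By class, the 30 pore genes of voltage-gated channels gave 9.0% to 12.0% of the summed potassium channel CPM of a library, their 23 modifier and auxiliary genes 28.2% to 40.7%, the 12 calcium- or sodium-activated pore and β genes 33.6% to 53.0%, the 15 inward rectifiers 4.20% to 13.0%, and the 14 tandem-pore genes 0.457% to 1.94%. Voltage-gated pore genes with a group mean of 10 CPM or more included Kcna2, Kcnc4, Kcnd3, Kcnh2, Kcnq3 and Kcnq5. Several genes commonly named in arterial muscle were low. Kcna5 lay at 0.147 to 3.58 CPM. Kcnj2, an inward rectifier gene, had a mean of 0.192 CPM and was at 0 in 5 libraries. Kcnk2, Kcnk6, Kcnn4 and Kcnq1 stayed between 0.226 and 1.57 CPM.

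Over both segments, 3 of 68 potassium channel genes rose in Tgfbr1/2iSMCKO SMCs (Kcna2, Kcnk3 and Kcnj8) and 2 fell (Kcnmb1 and Kcnq3), at an adjusted p under 0.05. Of all 22320 genes tested, 5.03% passed, 1.8% as higher and 3.23% as lower. The changes past 2-fold were Kcna2, Kcnk3 and Kcnj8 upward and Kcnq3 downward, where 1.03% of all genes passed with such an increase and 1.64% with such a decrease. The median log2 fold change was 0.08 over the 68 genes and 0.04 over all genes. By class, 2 of 25 voltage-gated pore genes tested passed, 0 of 15 of their partners, 1 of 11 inward rectifiers, 1 of 7 tandem-pore genes and 1 of 10 calcium- or sodium-activated channel genes.

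Kcna2 encodes a voltage-gated pore of the Shaker family (chromosome 3, 107101146 to 107115005, plus strand). In GFPiSMC SMCs it measured 2.64, 4.94 and 3.68 CPM in the ascending/arch libraries of replicates 1, 2 and 3, and 2.57, 1.44 and 3.41 CPM in the descending libraries. In Tgfbr1/2iSMCKO SMCs it measured 5.18, 14.8 and 15.9 CPM in the ascending/arch and 17.3, 16.6 and 6.81 CPM in the descending libraries. All 6 libraries of Tgfbr1/2iSMCKO lay above all 6 of GFPiSMC, with the lowest in ascending/arch replicate 1. The log2 fold change was 2.06 (SE 0.37, edgeR adjusted p = 0.00387), and 2.03 with adjusted p = 0.00859 with the segments of each replicate summed. Adjusted p stayed between 0.00432 and 0.0453 without any 1 animal.

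Kcnk3 encodes an acid-sensitive tandem-pore channel (chromosome 5, 30588170 to 30625271, plus strand). It measured 7.04, 10.02 and 5.82 CPM in the ascending/arch and 1.92, 3.86 and 4.18 CPM in the descending libraries of GFPiSMC. In Tgfbr1/2iSMCKO it measured 20.1, 23.0 and 29.1 CPM in the ascending/arch and 20.6, 9.07 and 27.2 CPM in the descending libraries. The genotypes did not overlap within either segment, but descending replicate 2 of Tgfbr1/2iSMCKO lay below ascending/arch replicate 2 of GFPiSMC. Of all genes tested, 8.87% in the ascending/arch and 7.19% in the descending segment were higher in Tgfbr1/2iSMCKO without such overlap. The log2 fold change was 2.08 (SE 0.31, edgeR adjusted p = 0.00122), and 1.97 with adjusted p = 0.0196 in sums per replicate. Without any 1 animal adjusted p was 0.00152 to 0.0152. Of its exon bases, 5.8% are shared with Gm9899 on the opposite strand (1 to 31 counts), and the library kit does not mark strand.

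Kcnj8 encodes an inward rectifier pore of the vascular ATP-sensitive channel. It measured 87.0, 32.5 and 54.3 CPM in the ascending/arch and 56.8, 45.6 and 44.7 CPM in the descending libraries of GFPiSMC, against 109, 98.1 and 174 CPM and 122, 95.7 and 187 CPM in those of Tgfbr1/2iSMCKO. The groups did not overlap, and both libraries of Tgfbr1/2iSMCKO replicate 3, which stood apart in mitochondrial share and marker sums, were the highest. The log2 fold change was 1.3 (SE 0.25, edgeR adjusted p = 0.00616). The call was lost in sums per replicate (1.31, adjusted p = 0.0856) and without GFPiSMC replicate 3 (1.24, adjusted p = 0.0564), and the log2 fold change was 0.99 without Tgfbr1/2iSMCKO replicate 3 (adjusted p = 0.0281).

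Kcnj8 is also a marker of pericytes. Of the other pericyte markers, Rgs5 (2341 to 4917 CPM in GFPiSMC, 829 to 2193 CPM in Tgfbr1/2iSMCKO) fell by 1.52 on the log2 scale (SE 0.21, edgeR adjusted p = 0.000701) and Cspg4 fell by 0.99 (SE 0.22, adjusted p = 0.0198). In sums per replicate Rgs5 still passed (adjusted p = 0.0297) and Cspg4 did not (0.126). The sum of the pericyte markers without Kcnj8, mostly Rgs5, was 2957 to 5615 CPM in GFPiSMC and 1261 to 2957 CPM in Tgfbr1/2iSMCKO. In GFPiSMC, Rgs5 had means of 3573 (ascending/arch) and 4177 CPM (descending). These lay between the SMC markers Myh11 (2341 and 3122 CPM) and Tagln (5065 and 5740 CPM). Whether these markers came from pericytes or from SMCs themselves cannot be told apart in these libraries, so the sum is not a measure of pericyte content. The part of pericytes in the difference of Kcnj8 was not tested. Abcc9, another pericyte marker and the sulfonylurea receptor that assembles with the Kcnj8 pore, differed by 0.05 on the log2 scale (SE 0.24, edgeR adjusted p = 0.964). It measured 434 to 544 CPM in GFPiSMC and 151 to 722 CPM in Tgfbr1/2iSMCKO. Higd1b, the remaining marker, was not tested, at 0 to 1.45 CPM in GFPiSMC and 0 to 0.247 CPM in Tgfbr1/2iSMCKO.

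Kcnmb1 (chromosome 11, 33963013 to 33973641, plus strand) measured 778, 804 and 888 CPM in the ascending/arch and 734, 670 and 766 CPM in the descending libraries of GFPiSMC. In Tgfbr1/2iSMCKO it measured 657, 622 and 559 CPM in the ascending/arch and 557, 579 and 498 CPM in the descending libraries. Each Tgfbr1/2iSMCKO library lay below each GFPiSMC library, by a small margin between descending replicate 2 of GFPiSMC and ascending/arch replicate 1 of Tgfbr1/2iSMCKO. Kcnmb1 fell by 0.42 on the log2 scale (SE 0.08, edgeR adjusted p = 0.00752). The call was lost in sums per replicate (adjusted p = 0.148), without GFPiSMC replicate 3 (adjusted p = 0.0681) and with scaling to library size only (-0.29, adjusted p = 0.0902). Its pore partner Kcnma1 measured 42.5 to 69.6 CPM in GFPiSMC and 36.7 to 60.9 CPM in Tgfbr1/2iSMCKO, a difference of -0.27 on the log2 scale (SE 0.15, adjusted p = 0.437).

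Kcnq3 encodes a slowly activating voltage-gated pore of the family of Kcnq5 (chromosome 15, 65986387 to 66286642, minus strand). It measured 14.0, 13.0 and 11.7 CPM in the ascending/arch and 6.87, 14.2 and 17.2 CPM in the descending libraries of GFPiSMC. In Tgfbr1/2iSMCKO it measured 2.27, 5.77 and 4.12 CPM and 3.73, 4.21 and 4.62 CPM. The groups did not overlap, and the nearest GFPiSMC library was descending replicate 1. Kcnq3 fell by 1.64 on the log2 scale (SE 0.26, edgeR adjusted p = 0.00198), and by 1.64 with adjusted p = 0.0289 in sums per replicate. Without any 1 animal adjusted p was 0.00388 to 0.0172. Kcnq5 did not pass, with 0.40 (SE 0.20, adjusted p = 0.357).

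**Figure D2:**
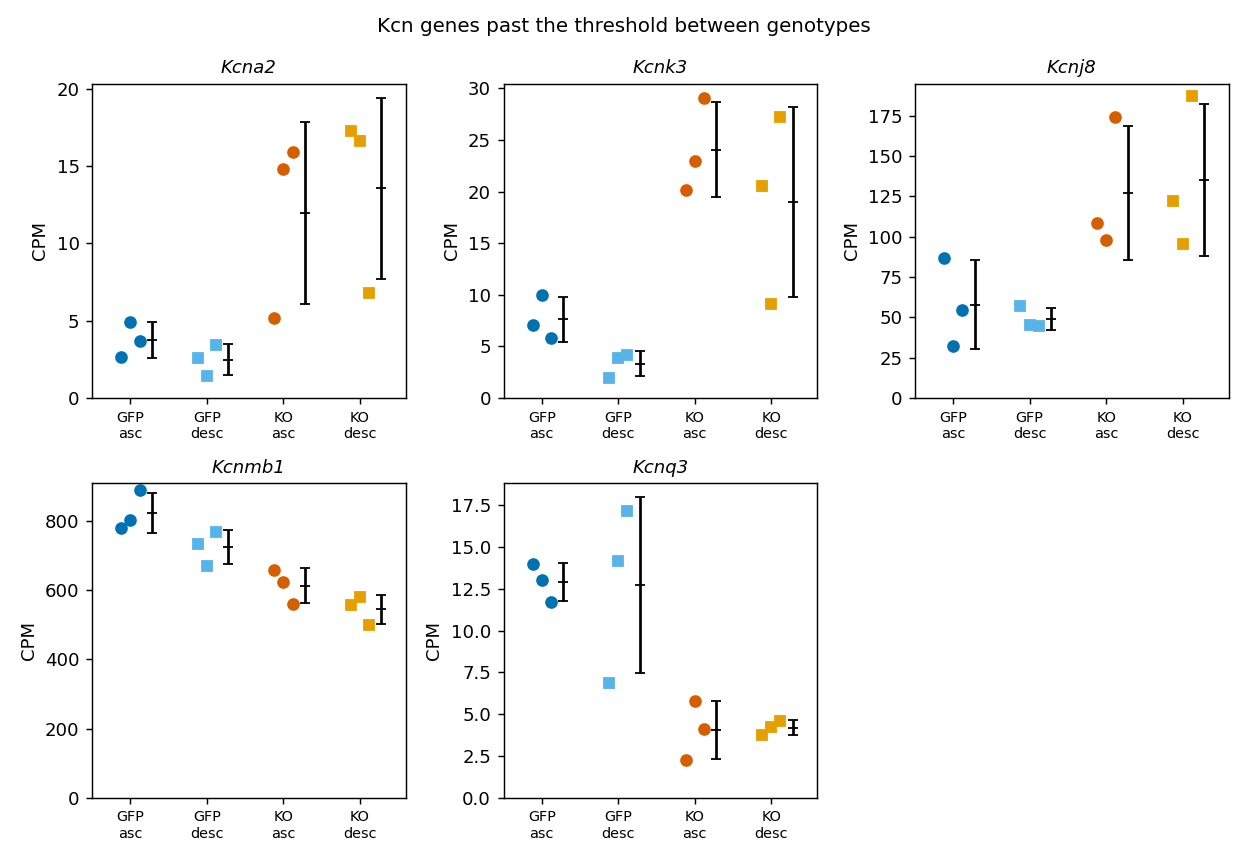
CPM of the 5 potassium channel genes past the threshold between genotypes, by genotype and segment (GFP, GFPiSMC; KO, Tgfbr1/2iSMCKO; asc, ascending/arch; desc, descending). Points are the 3 libraries of a group in order of replicate number, and bars are mean ± SD. Kcna2, Kcnk3 and Kcnj8 are higher and Kcnmb1 and Kcnq3 lower in Tgfbr1/2iSMCKO, with overlap between genotypes only for Kcnk3 across segments.

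Of the 68 genes tested, 2 were lower (Kcnmb1 and Kcnq3) and 2 higher (Kcna2 and Kcnj8) in Tgfbr1/2iSMCKO without overlap of libraries between genotypes. Of all genes tested, 2.89% were lower and 1.51% higher in this way. Kcnd1, a voltage-gated pore of the Shal family, lay just outside the threshold. It measured 0.201 to 0.806 CPM in GFPiSMC and 0.337 to 2.71 CPM in Tgfbr1/2iSMCKO, and the log2 difference was 1.73 (SE 0.47, edgeR adjusted p = 0.0502). DESeq2 called it (1.74, adjusted p = 0.00425) together with Kcnj15 (-0.81, adjusted p = 0.0406) and the 5 genes above, when 9.11% of all genes were called.

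Other abundant genes did not pass between genotypes. Kcnab1 measured 366 to 530 CPM in GFPiSMC and 379 to 572 CPM in Tgfbr1/2iSMCKO (log2 fold change 0.18, SE 0.13, edgeR adjusted p = 0.609). Kcne4, an auxiliary subunit of Kcnq channels, ranged more widely, at a log2 difference of 0.04 (SE 0.40, adjusted p = 0.985). Its values in Tgfbr1/2iSMCKO were 53.8, 47.1 and 118 CPM in the ascending/arch and 30.1, 14.1 and 76.7 CPM in the descending libraries, with replicate 3 highest in both. Without that animal the log2 difference of Kcne4 was -0.66 (adjusted p = 0.425). Replicate 3 stood out in the same way for Kcnh2, the pore of the rapid delayed rectifier, at 8.17, 9.85 and 21.7 CPM and 9.69, 8.58 and 20.7 CPM. Without it Kcnh2 fell by 0.96 on the log2 scale (adjusted p = 0.0220), against -0.42 (SE 0.30, adjusted p = 0.585) with all libraries. Kcnh2 did not pass without any other 1 animal, with log2 differences of -0.44 to -0.19 (edgeR adjusted p = 0.702 to 0.890).

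Within the ascending/arch segment, Kcnip4 alone of the 68 genes passed (1.41% of all genes passed). It encodes a calcium-binding auxiliary subunit of Shal-family channels (chromosome 5, 48389502 to 49524907, minus strand). Its ascending/arch libraries measured 45.5, 43.9 and 43.2 CPM in GFPiSMC and 22.3, 19.4 and 16.8 CPM in Tgfbr1/2iSMCKO. The descending libraries measured 19.6, 17.1 and 20.2 CPM and 20.3, 22.3 and 15.7 CPM. The 3 ascending/arch libraries of GFPiSMC thus stood above the other 9. Kcnip4 fell by 1.18 in the ascending/arch segment (SE 0.21, edgeR adjusted p = 0.0128), and adjusted p rose to between 0.0557 and 0.0947 without any 1 animal other than Tgfbr1/2iSMCKO replicate 3. Its exons share 4.6% of their bases with 5730480H06Rik on the opposite strand (226 to 497 counts in a library, against 400 to 1278 for Kcnip4).

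Within the descending segment, Kcnk3 (log2 fold change 2.51, SE 0.43, edgeR adjusted p = 0.00948) and Kcna2 (2.45, SE 0.52, adjusted p = 0.0323) rose, where 1.72% of all genes passed. The call of Kcna2 was lost without any 1 animal other than Tgfbr1/2iSMCKO replicate 3 (adjusted p = 0.0848 to 0.191). That of Kcnk3 was lost without GFPiSMC replicate 1, GFPiSMC replicate 2 or Tgfbr1/2iSMCKO replicate 1 (adjusted p = 0.0601 to 0.104). In the ascending/arch segment the values were 1.66 (SE 0.41) for Kcnk3 and 1.67 (SE 0.50) for Kcna2, with adjusted p = 0.0809 and 0.166.

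The genotype effect of 0 of 68 potassium channel genes differed between segments by edgeR, as of 0% of all genes. At an unadjusted p under 0.05 there were 2, Kcnip4 and Kcnn3, where 2.95% of all genes passed. For Kcnip4 the effect was 1.21 log2 units higher in the descending than in the ascending/arch segment (SE 0.29, edgeR adjusted p = 1). DESeq2 gave 1.22 with an adjusted p of 0.0330 and called Kcnip4 as 1 of 8 genes in all. The values of Kcnn3, a small-conductance calcium-activated channel gene, rested on 4 to 75 counts per library.

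**Figure D3:**
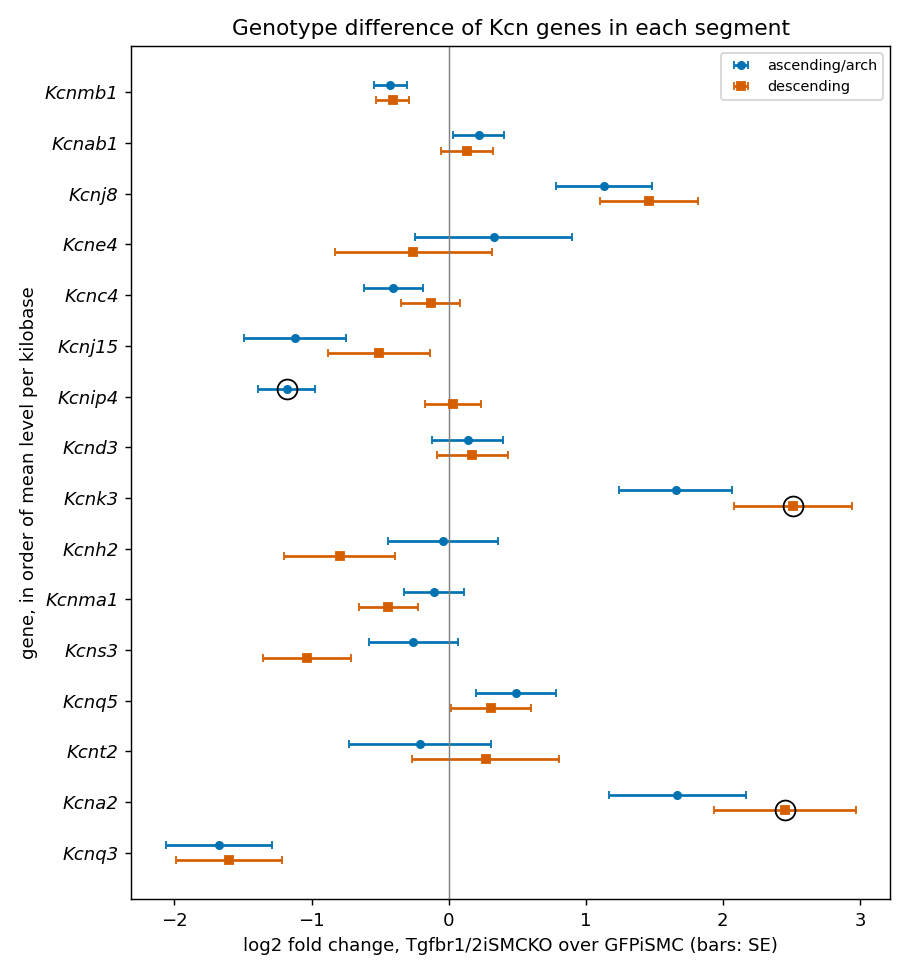
Log2 fold change of Tgfbr1/2iSMCKO over GFPiSMC in the ascending/arch (blue circles) and descending (orange squares) segment for 16 potassium channel genes, with bars of 1 SE. Black rings mark an adjusted p under 0.05. Kcna2, Kcnk3, Kcnj8, Kcnmb1 and Kcnq3 lie on the same side of 0 in both segments, and Kcnip4 lies at -1.18 in the ascending/arch and near 0 in the descending segment.

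Between segments, over both genotypes, Kcnj15 and Kcnt2 were lower in descending SMCs, 2 of 68 genes, where 0.797% of all genes passed. Kcnj15 encodes an inward rectifier (chromosome 16, 95257558 to 95300260, plus strand). It measured 56.6, 128 and 149 CPM in the ascending/arch and 19.0, 17.2 and 27.5 CPM in the descending libraries of GFPiSMC, and 67.3, 30.0 and 56.2 CPM and 17.2, 15.8 and 11.7 CPM in those of Tgfbr1/2iSMCKO. The segments did not overlap over all 12 libraries. Kcnj15 fell by 2.09 on the log2 scale (SE 0.28, edgeR adjusted p = 0.00200), and the call held without any 1 animal (adjusted p = 0.00238 to 0.0184).

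Kcnt2 encodes a sodium-activated channel (chromosome 1, 140246158 to 140612067, plus strand). It measured 6.71, 10.4 and 12.4 CPM in the ascending/arch and 0.422, 2.77 and 1.65 CPM in the descending libraries of GFPiSMC, and 9.06, 11.1 and 5.35 CPM and 2.03, 1.53 and 2.29 CPM in those of Tgfbr1/2iSMCKO. Again the segments did not overlap. Kcnt2 fell by 2.36 on the log2 scale (SE 0.38, edgeR adjusted p = 0.00780). The call was lost without GFPiSMC replicate 3 (adjusted p = 0.0688), Tgfbr1/2iSMCKO replicate 1 (0.0502) or Tgfbr1/2iSMCKO replicate 2 (0.0522). Libraries of the segments that did not overlap, descending below ascending/arch, were found for 0.6% of all genes.

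In GFPiSMC alone, 2 genes passed between segments, where 0.376% of all genes did. Kcnj15 fell by 2.39 in descending SMCs (SE 0.39, edgeR adjusted p = 0.0187) and Kcnip4 by 1.22 (SE 0.21, adjusted p = 0.0255). With the animal as a block Kcnip4 no longer passed (adjusted p = 0.0556), and each call was lost without any 1 GFPiSMC animal or without Tgfbr1/2iSMCKO replicate 1 (up to adjusted p = 0.286 for Kcnj15 and 0.401 for Kcnip4). In Tgfbr1/2iSMCKO alone, 0 of 68 genes passed by edgeR, where 0.112% of all genes did. There 3 genes had an unadjusted p under 0.05 (3.68% of all genes), and DESeq2 called 2, Kcnj15 (-1.78, adjusted p = 0.00252) and Kcnt2 (-2.12, adjusted p = 0.0108).

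**Figure D4:**
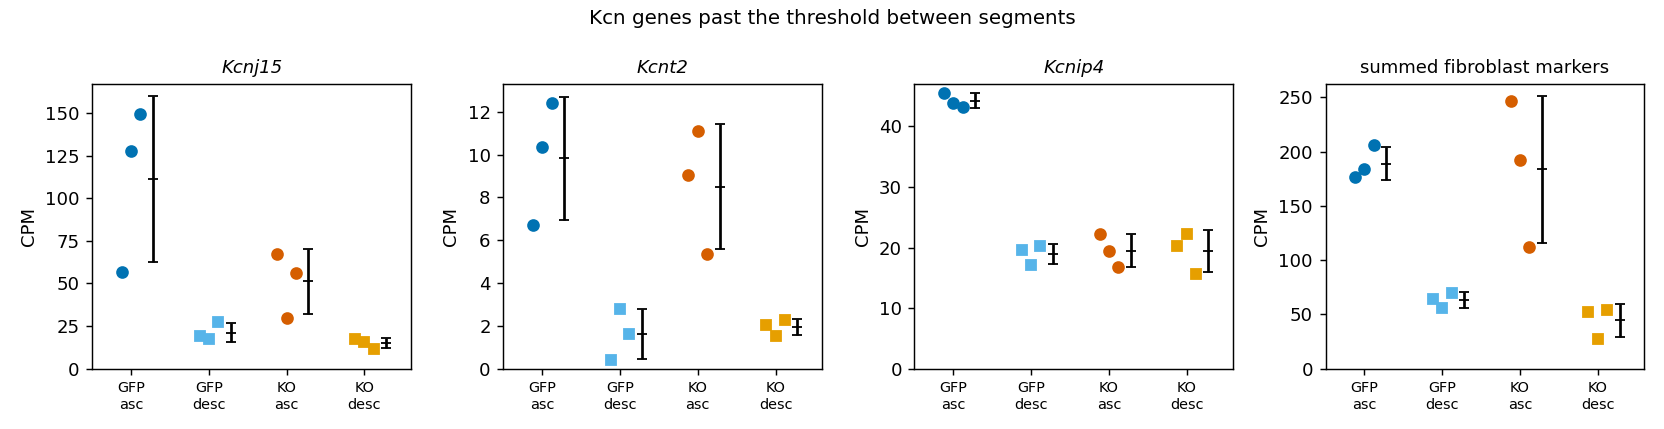
CPM of Kcnj15, Kcnt2 and Kcnip4 and the summed CPM of 6 fibroblast markers by genotype and segment (GFP, GFPiSMC; KO, Tgfbr1/2iSMCKO; asc, ascending/arch; desc, descending). Points are libraries in order of replicate number and bars are mean ± SD. Kcnj15, Kcnt2 and the fibroblast markers are higher in each ascending/arch group, and Kcnip4 is high only in the ascending/arch libraries of GFPiSMC.

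Fibroblast markers differed between the segments in the same direction. The summed level of 6 markers was 176 to 206 CPM in the ascending/arch and 55.7 to 70.0 CPM in the descending libraries of GFPiSMC, and 112 to 247 CPM and 27.3 to 54.0 CPM in those of Tgfbr1/2iSMCKO. The defining markers Dcn and Lum were not at 0 in any library (2.31 to 120 CPM and 0.944 to 69.8 CPM). The cardiac muscle marker sum, mostly Tnnt2 and Ryr2, was also higher in the ascending/arch segment. It was 95.0 to 98.1 CPM against 42.4 to 94.1 CPM in descending libraries of GFPiSMC, and 82.1 to 149 CPM against 48.0 to 65.7 CPM in Tgfbr1/2iSMCKO. The part of fibroblast or cardiac markers in the segment differences of Kcnj15 and Kcnt2 was not tested. Kcnip4 was at 16.8 to 22.3 CPM in the ascending/arch libraries of Tgfbr1/2iSMCKO, where the fibroblast sum was 112 to 247 CPM. The part of fibroblasts in the differences of Kcnip4 was not tested either.

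Genes that work with potassium channels were followed through 4 lists. Of 11 tested channel partners without a Kcn name, such as the sulfonylurea receptors, 0 passed between genotypes by edgeR or at an unadjusted p under 0.05, where 5.03% and 16.1% of all genes did so (median log2 fold change 0.03). Of 14 calcium channel genes, Cacna2d1, an auxiliary subunit of voltage-gated calcium channels, fell by 0.69 (SE 0.16, adjusted p = 0.0238). Of 11 genes for potassium uptake, the sodium pump β subunits Atp1b2 (0.86, SE 0.14, adjusted p = 0.00206) and Atp1b1 (0.80, SE 0.14, adjusted p = 0.00339) rose and Fxyd5, a regulator of the pump, fell by 0.92 (SE 0.21, adjusted p = 0.0190). Of 10 kinases and scaffolds, Cav1, the coat protein of caveolae, rose (0.68, SE 0.13, adjusted p = 0.00696). In sums per replicate the adjusted p of these 5 genes was 0.0587 to 0.164, and with scaling to library size only that of Cacna2d1 was 0.0716.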

How the data were processed

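The deposited values were whole-number gene counts that the authors made with HISAT2 (GRCm38) and StringTie, without normalization between libraries. StringTie derives counts from coverage, so that low counts are not a direct tally of reads, and the step to whole numbers is not given in the sources used here. Reads were not processed again here. Gene symbols, coordinates and merged exon lengths came from a later GENCODE release of the same build, which named 52489 of 52636 genes. Promoters were RefSeq windows cut to the 250 bases before the start.

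Libraries were grouped by genotype and segment as labelled. Segments with the same genotype and replicate number were taken as 1 animal. The study compared genes with DESeq2. Here edgeR 4.0.16 (R 4.3.3) was used on the counts as deposited, filtered by filterByExpr for the 4 groups and scaled by TMM. Its quasi-likelihood test was adjusted by Benjamini-Hochberg over all 22320 genes. The genotype and segment effects over all libraries came from a fit with segment and genotype, and all others from a fit with 4 group means. An adjusted p under 0.05 counted as passing, and each SE is the absolute log2 difference divided by the root of the F statistic. Libraries of 1 animal are not independent, so sums per animal stand beside the genotype results. For a single value, an exact two-sided permutation test of 3 animals against 3 cannot go below p = 0.1. Nothing in the labels says more of how replicates were made.

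The genes named were those past the threshold in any comparison, those with a group mean of 10 CPM or more, textbook arterial channels and genes of the lists past the threshold between genotypes. Kcnd1, Kcnn3, Kcnk7 and the genes of the floxed receptors and markers were named after their values were seen. Some genes that met the rule are not reported here. The members, lists and tests were chosen with earlier results of these data known.

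Alternatives were DESeq2 1.42.0, RLE factors, library size only, other count filters, no segment term, sums per animal, limma-voom (limma 3.58.1) with a random effect of the animal, replicate blocks and each animal left out. The fits were also run on simulated counts. These had independent libraries, no effect of the animal and a smaller spread than the data, so that they do not cover libraries that share an animal. Plots used matplotlib 3.10.9.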

Additional observations from a re-analysis of the deposited data

Results flagged for a closer look

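The genotype effect of Kcnip4 differed between segments by DESeq2 (difference of 1.22 log2 units, descending minus ascending/arch, adjusted p = 0.0330), because its 3 ascending/arch libraries of GFPiSMC (43.2 to 45.5 CPM) stood above the other 9 (15.7 to 22.3 CPM). edgeR gave 1.21 with an adjusted p of 1, and between 0.860 and 1.00 without any 1 animal. With the animal as a block, an alternative chosen after seeing the data, edgeR gave 1.21 with an adjusted p of 0.962.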

How the results depend on the processing

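No log2 fold change of the 12 calls of named genes changed sign under any alternative, and 119 of 149 alternative values kept the call. These calls were picked because they passed, and the alternatives reused the same libraries, so that these counts are not independent support. Over both segments, the genes lower in Tgfbr1/2iSMCKO numbered 2, and 1 in sums per animal and with library size only (Kcnq3 in both), where the median over all genes moved from 0.04 to 0.16. Leaving out 1 animal gave 1 to 3 lower and 2 to 4 higher. DESeq2 called 5 genes in the ascending/arch and 5 in the descending segment (4.07% and 4.06% of all genes), 1 whose effect differed between segments (0.0358%) and 2 between segments in Tgfbr1/2iSMCKO (0.739%). Leaving out 1 animal gave 0 to 1 in the ascending/arch segment, 0 to 3 in the descending segment, 0 to 2 between segments in GFPiSMC and 1 to 2 over both genotypes. The cause of these differences was not tested. With the replicate number as a block, 3 genes were higher and 2 lower, as without it. With the animal as a replicate block, 1 gene rather than 2 passed between segments in GFPiSMC, 0 in Tgfbr1/2iSMCKO and 2 over both. Deviations of the segments of 1 animal correlated with r from -0.24 to 0.66, and those of same-numbered animals across genotypes from -0.53 to 0.22. With 3 animals a group, these correlations cannot settle whether numbers paired genotypes. The common biological coefficient of variation was 0.442 with 3 animals a genotype, and 26 genes of 21 counts or fewer in each library were not tested.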
